A study of Macaca mulatta with 10 samples.

Results

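The peripheral area of differentiating embryonic stem (ES) cell colonies, IVDS2-P, was compared with the whole culture at the same stage, IVDS2, in ORMES6, an ES cell line of the rhesus macaque. The comparison asked what the periphery held or lacked against the unseparated culture. The members were chosen by sample title and are 4 arrays of the 10 in the series, with n = 2 in each group. Total RNA was hybridised to Affymetrix arrays for the rhesus macaque, 2 for each of 5 groups. The other groups were undifferentiated ES cells (the control), the foci at the colony centre (IVDS2-C), and cells at IVDS3. IVDS is read here as in vitro differentiation stage, so IVDS2 and IVDS3 are stages 2 and 3. Per the labels, ORMES6 was grown on mouse embryonic fibroblast (MEF) feeders with bFGF and knockout serum replacement, and hepatic foci formed in co-culture with cells named hESdF, which resemble fibroblasts and derive from human ES cells. The labels attach this co-culture text to every array, the ES controls included, and give ESC as the cell type of all 10. They do not say how the periphery was separated, whether IVDS2 RNA included the co-cultured fibroblasts, or whether the repeats were separate cultures. The p-values therefore measure only the spread between these arrays, which may be technical. All groups come from 1 cell line, and the small number of arrays limits the precision.

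When primate ES cells leave the pluripotent state they can enter the embryonic germ layers, or extraembryonic lineages such as trophoblast and amnion. Trophoblast and amnion cells are epithelia that share transcription factors such as GATA3 and TFAP2A and keratins of simple epithelia. In the epithelial-mesenchymal transition, factors such as TWIST1 and ZEB1 are known to repress epithelial junction genes, while liver is built from definitive endoderm and secretes plasma proteins such as the fibrinogens and apolipoproteins. In RNA from a mixed culture, fewer cells of a type and less RNA per cell cannot be told apart.

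The deposited values were read as log2 values and had been set to 0 at each probe set's median over the 10 arrays. A value thus states how far an array lies above or below that median and gives no absolute level. A gene's value is the mean of its probe sets, a difference is the mean of IVDS2-P minus the mean of IVDS2, and the value after ± is its standard error (SE) from a limma fit to all 10 arrays. A gene was called at a Benjamini-Hochberg adjusted p under 0.05 over all 13191 genes. Over probe sets, the differences between the 2 arrays of a group had a standard deviation of 0.27 in IVDS2-P, 0.28 in IVDS2 and between 0.24 and 0.40 in the other groups. The median difference over all genes was -0.02.

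Among genes called with all arrays fitted, more were lower than higher in the periphery. This order did not hold among called genes or called probe sets when IVDS2 replicate 1 was left out. With all arrays fitted, it also turned at an unadjusted limma p under 0.05, with 915 genes higher and 866 lower of 13191. List counts at that p given below stand beside these. limma called 182 genes (1.38% of those tested), 125 of them lower in IVDS2-P (0.948%) and 57 higher (0.432%). Of these, 85 lower and 36 higher genes differed at least 2-fold. The largest lower genes with a name were BNC1, CCKBR and VGLL1, and the largest higher ones were TWIST1, AGT and HOXA2. Among probe sets 420 of 44210 were called (0.950%), 278 lower and 142 higher, and 152 of the called ones have no gene assigned. For comparison, limma called 767 genes (5.81%) between IVDS2-C and IVDS2, which shares the IVDS2 arrays, and 1449 (11.0%) between IVDS2-P and ES cells. The arrays of IVDS2-P and IVDS2 did not overlap for all 182 called genes, but neither did they for 6646 genes in all (50.4%).

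The number of calls changed when single arrays were left out. Without IVDS2-P replicate 1 limma called 0 genes, although 1092 genes had an unadjusted p under 0.05 (532 higher and 560 lower), and the 182 genes had an adjusted p between 0.0501 and 0.290. Without IVDS2-P replicate 2 the fit called 76 genes (57 of the 182), without IVDS2 replicate 1 it called 96 (53 of the 182), and without IVDS2 replicate 2 it called 37 (32 of the 182). Each of these fits leaves 1 group with a lone array, which is assumed to vary like the other groups. Leaving out any array also widens the standard error and lowers the power. How far this lowered the counts was not tested. Over the 182 genes the median distance from the IVDS2 mean was 1.21 for IVDS2-P replicate 1 and 1.12 for replicate 2. Every gene call given below was thus lost without IVDS2-P replicate 1.

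**Figure D1:**
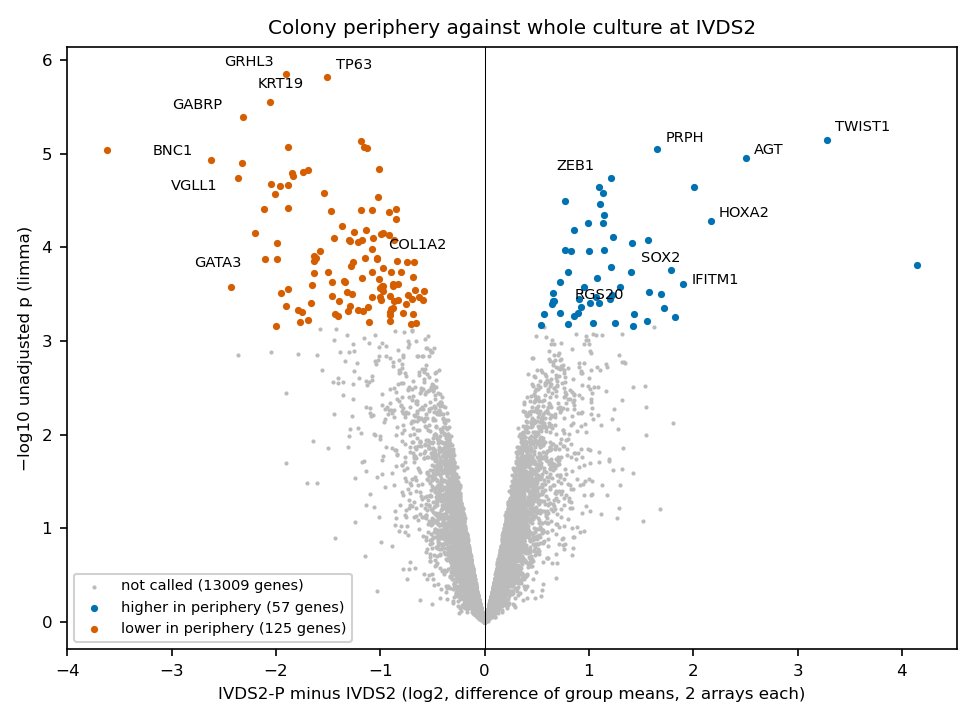
The plot of difference against p shows each of the 13191 genes as a point, with the IVDS2-P minus IVDS2 difference (log2) on the x axis and the -log10 of the unadjusted limma p on the y axis. The 125 genes called lower in the periphery (orange) outnumber the 57 called higher (blue), and TWIST1 is the named gene farthest to the right.

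Genes of trophoblast and amnion were the list with the most members called, and all of these were lower in the periphery. The gene lists were written with earlier results of these data known, so their counts describe the data and do not test the lists. Of 20 measured list members, 12 were called lower and 0 higher, where 0.948% of all genes were called lower, and the median difference of the list was -1.30. The list median was -0.90 and -1.12 on the IVDS2-P arrays, 0.09 and -0.02 on the IVDS2 arrays, -1.40 and -1.08 on the ES arrays, and 0.73 and 0.88 on the IVDS2-C arrays. In 17 of the 20 genes both periphery arrays lay below both IVDS2 arrays, against 27.7% of all genes.

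The largest of these differences included transcription regulators. GATA3, a zinc finger factor of trophoblast and amnion, had values of -2.49 and -1.72 in the periphery and 0.13 and -0.13 in the whole culture, 4.31-fold lower (difference -2.11 ± 0.33, adjusted p = 0.0233). VGLL1, a cofactor of TEAD factors expressed in trophoblast, was at -2.83 and -1.90 in the periphery and 0.05 and -0.05 in the whole culture (difference -2.36 ± 0.29, adjusted p = 0.0115). For both genes the periphery arrays lay above both ES arrays. ISL1, a LIM homeodomain factor of amnion and of cardiac mesoderm, was at -2.44 and -1.66 against -0.04 and 0.04 (difference -2.05 ± 0.25, adjusted p = 0.0116), and its ES arrays, at -2.06 and -2.22, fell within the range of the periphery. TFAP2C, ELF5, TFAP2A and GATA2, further factors of these lineages, were lower, with differences of -1.37, -1.35, -1.21 and -1.11 on the log2 scale. The 3 probe sets of GATA2 gave differences of -0.47, -0.64 and -2.21. CDX2, a trophectoderm factor, differed by -0.17 and was not called.

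Surface, secreted and structural genes of the same list were called lower as well. GABRP, a subunit of the GABA-A receptor that marks amnion, was at -2.22 and -2.40 in the periphery and -0.15 and 0.15 in the whole culture, 4.96-fold lower (difference -2.31 ± 0.23, adjusted p = 0.0108). No groups overlapped for this gene, and their order from low to high was ES (-4.32 and -3.87), periphery, whole culture, centre (2.02 and 2.73) and IVDS3 (4.10 and 4.09). WNT6, a secreted Wnt ligand, was at -2.42 and -1.56 against 0.13 and -0.13 (difference -1.99 ± 0.31, adjusted p = 0.0233), and its periphery arrays overlapped the ES arrays (-2.16 and -2.50). KRT7, a keratin of simple epithelia, was lower, with a difference of -1.77 (adjusted p = 0.0476). The peptidase ENPEP and the growth factor binder IGFBP3 were lower, with differences of -1.64 and -1.69, and the 3 probe sets of ENPEP gave -0.36, -2.05 and -2.50. VTCN1, PGF and SLC40A1 differed by -0.31, -0.03 and -0.16 and were not called. With only the 4 compared arrays in the fit 7 members were called lower, and leaving out 1 array left 5 called when it was IVDS2 replicate 1, 4 for IVDS2 replicate 2, 5 for IVDS2-P replicate 2 and 0 for IVDS2-P replicate 1.

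**Figure D2:**
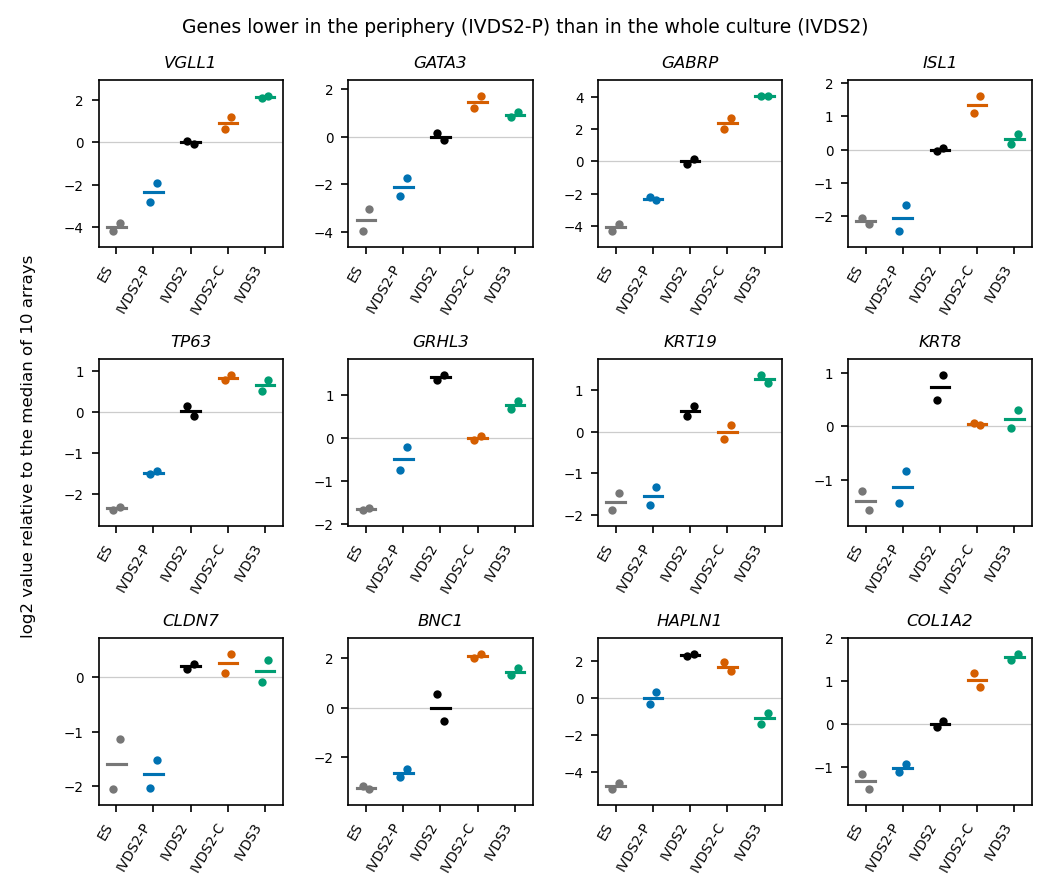
Values of 12 genes lower in the periphery, with 1 panel a gene and the 5 groups on the x axis. Each point is 1 array, the bar is the group mean, and the y axis is the log2 value relative to the median of the 10 arrays on a scale of its own in each panel. KRT19, KRT8, CLDN7 and ISL1 sit near the ES arrays in IVDS2-P, while HAPLN1 and GABRP sit between ES and IVDS2.

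Genes of simple epithelium were called in 1 direction, lower in the periphery. Of 23 measured genes of simple epithelium and its junctions, 10 were called lower and 0 higher, where 0.948% of all genes were called lower, with a median difference of -0.77. The list median was -0.68 and -0.74 on the periphery arrays, 0.08 and 0.0032 on the IVDS2 arrays and -0.35 and -0.09 on the ES arrays.

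Intermediate filament genes of simple epithelia did not move as 1 block. KRT19 was at -1.76 and -1.34 in the periphery and 0.39 and 0.63 in the whole culture, 4.16-fold lower (difference -2.06 ± 0.20, adjusted p = 0.0108), and its 3 probe sets gave differences from -2.14 to -2.01. KRT8 was at -1.45 and -0.84 against 0.50 and 0.97, 3.69-fold lower (difference -1.89 ± 0.23, adjusted p = 0.0116). For both, the periphery and ES arrays overlapped, with ES at -1.88 and -1.48 for KRT19 and -1.22 and -1.57 for KRT8. The periphery minus ES differences were 0.13 (adjusted p = 0.673) and 0.25 (adjusted p = 0.495), neither called. KRT18, the usual filament partner of KRT8, lay on the other side, at 0.63 and 0.46 in the periphery and -0.03 and -0.28 in the whole culture, a difference of 0.70 ± 0.15 that was not called (adjusted p = 0.0765). The difference of KRT18 was positive in both of its probe sets (0.43 and 0.97). Both keratin genes have many processed copies in primate genomes, and whether the probes read such copies was not tested.

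Several of the called genes encode junction proteins. CLDN7, a tight junction claudin, was at -2.04 and -1.52 in the periphery and 0.16 and 0.25 in the whole culture (difference -1.99 ± 0.30, adjusted p = 0.0189). The periphery arrays fell within the ES range (-2.06 and -1.14), and the periphery minus ES difference of -0.18 was not called (adjusted p = 0.701). The tight junction genes OCLN, CLDN4 and MARVELD3 were lower, with differences of -1.13, -0.90 and -0.85, and the desmosome gene DSP was lower, with a difference of -0.76. The 2 probe sets of CLDN4 disagreed, with differences of -0.16 and -1.65. EPCAM, an epithelial adhesion molecule also made by ES cells, was at -0.92 and -0.74 against -0.02 and 0.02 (difference -0.83 ± 0.14, adjusted p = 0.0313), and the periphery was below ES cells as well (-0.61, adjusted p = 0.029). CDH1, the cadherin of adherens junctions, had values of -1.33 and -0.96 in the periphery, below those of all other arrays, but its difference from IVDS2 of -1.16 ± 0.24 was not called (adjusted p = 0.0605). RAB25, a GTPase of apical recycling, and ESRP2, an epithelial splicing regulator, were lower, with differences of -1.66 and -1.32. TJP1, CLDN10 and CLDN1 differed by -0.02, -0.03 and 0.22 and were not called. Of the 10 called genes of this list 3 stayed called when IVDS2 replicate 1 was left out, 2 for IVDS2 replicate 2, 4 for IVDS2-P replicate 2 and 0 for IVDS2-P replicate 1.

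Of 20 genes of stratified epithelium 3 were called lower (0.948% of all genes were) and 0 higher, and the median difference was -0.21. GRHL3, a grainyhead factor of surface ectoderm, was at -0.75 and -0.21 in the periphery and 1.37 and 1.48 in the whole culture, 3.73-fold lower (difference -1.90 ± 0.17, adjusted p = 0.00997). TP63, the p63 factor of epithelial stem cells, was at -1.53 and -1.44 against 0.14 and -0.10 (difference -1.51 ± 0.14, adjusted p = 0.00997), and its 6 probe sets differed by -2.04 to -0.95. In both genes the periphery arrays lay between those of ES cells and the whole culture. PERP, a desmosome-associated membrane protein, was lower, with a difference of -1.50 (adjusted p = 0.0266). The keratins of stratified epithelia KRT4, KRT13 and KRT16 differed by -0.15, -0.28 and -0.49, and none was called. BNC1, a zinc finger protein of basal keratinocytes that stands in no list, was at -2.77 and -2.47 in the periphery and 0.56 and -0.56 in the whole culture, 6.15-fold lower (difference -2.62 ± 0.30, adjusted p = 0.0115). GRHL3, TP63, BNC1, GABRP and KRT19 each stayed called when an array other than IVDS2-P replicate 1 was left out, while PERP (adjusted p 0.100 to 0.186) did not in any of these fits.

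Members of the neural plate border and neural crest list were called in both directions. Of 16 measured, 4 were called lower and 2 higher, where 0.948% and 0.432% of all genes were, with a median difference of -0.66. The homeobox genes DLX3 and DLX5, which act in surface ectoderm and the plate border, were both called lower. DLX3 was at -1.04 and -0.45 in the periphery and 1.55 and 0.73 in the whole culture (difference -1.88 ± 0.33, adjusted p = 0.0324). DLX5 was at -1.37 and -0.74 against 1.00 and 0.21 (difference -1.66 ± 0.30, adjusted p = 0.0363). TFAP2B and TFAP2A, AP-2 factors of early ectoderm and crest, were lower, with differences of -1.30 and -1.21, but in the periphery they stood above ES cells, by 1.77 and 1.84. The 2 members called higher were TWIST1 and RGS20. RGS20 was highest in ES cells (2.99 and 2.09). This list too was written with earlier results of these data known, so the 2 higher calls are no independent support for crest genes. MSX1 and MSX2, homeobox genes of the same territory, differed by 0.16 and -0.76 and were not called, and PAX3 and SOX10 differed by -0.14 and -0.15. With only the 4 compared arrays in the fit 1 member was called lower, and of the 4, 0 were still called without IVDS2 replicate 1 or IVDS2-P replicate 1 and 1 without each of the others. Of the higher genes, TWIST1 was lost without IVDS2-P replicate 1 alone, and RGS20 without any 1 of the 4 arrays (adjusted p 0.0610 to 0.237).

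Among the 20 genes of mesoderm and heart ISL1 was the 1 called, lower (0.948% of all genes were), and the median difference was -0.21. MYL7, an atrial myosin light chain, and HAND1, a factor of extraembryonic and cardiac mesoderm, differed by -1.45 and -1.25 without a call, and MEIS1 by 1.32 in the other direction. Of 14 contractile and smooth muscle genes limma called 0, while 8 had an unadjusted p under 0.05, all lower (against 866 of 13191 genes), with a median difference of -0.70. ANKRD1, TPM1 and TAGLN, which encode a muscle ankyrin repeat protein, a tropomyosin and transgelin, differed by -1.32, -1.02 and -0.87.

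The 12 largest lower genes with a name also held CHMP4C, a membrane remodelling protein of the ESCRT-III complex, at -1.72 and -1.45 in the periphery and 0.65 and 0.21 in the whole culture (difference -2.01 ± 0.26, adjusted p = 0.0121). C5H4orf19 and C1H1orf115 were lower too, with differences of -2.20 and -2.11, and their periphery and ES arrays overlapped. Of those 12 genes 6 stayed called when IVDS2 replicate 1 was left out, 5 for IVDS2 replicate 2, 11 for IVDS2-P replicate 2 and 0 for IVDS2-P replicate 1. Landmark genes of other kinds were not called. NR2F2, an orphan nuclear receptor of mesenchyme, differed by -0.66, the scavenger receptor gene COLEC12 by -0.23 and NPTX2, a neuronal pentraxin, by 0.48.

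Matrix genes that mark fibroblasts were measured because the cultures held co-cultured fibroblast-like cells. Of 21 genes 1 was called, lower (0.948% of all genes were), and the median difference was -0.08. The called gene was COL1A2, a chain of type I collagen, at -1.12 and -0.93 in the periphery and -0.08 and 0.08 in the whole culture (difference -1.03 ± 0.16, adjusted p = 0.0233), and its call was lost when any 1 of the 4 arrays was left out (adjusted p 0.0612 to 0.189). COL1A1, the other chain of that collagen, differed by -0.08 ± 0.24 and was not called, with overlapping arrays. The list median was -0.08 and -0.14 on the periphery arrays and -0.07 and 0.02 on the IVDS2 arrays, and the part of fibroblasts in the other differences was not tested. Other genes of the extracellular space were lower by more. HAPLN1, which links hyaluronan to proteoglycans, was at -0.34 and 0.34 against 2.27 and 2.37 (difference -2.32 ± 0.27, adjusted p = 0.0115) while standing above ES cells by 4.75 on the log2 scale. ADAMTS1, a secreted protease of proteoglycans, was 3.99-fold lower with an adjusted p of 0.04995, just inside the threshold.

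**Figure D3:**
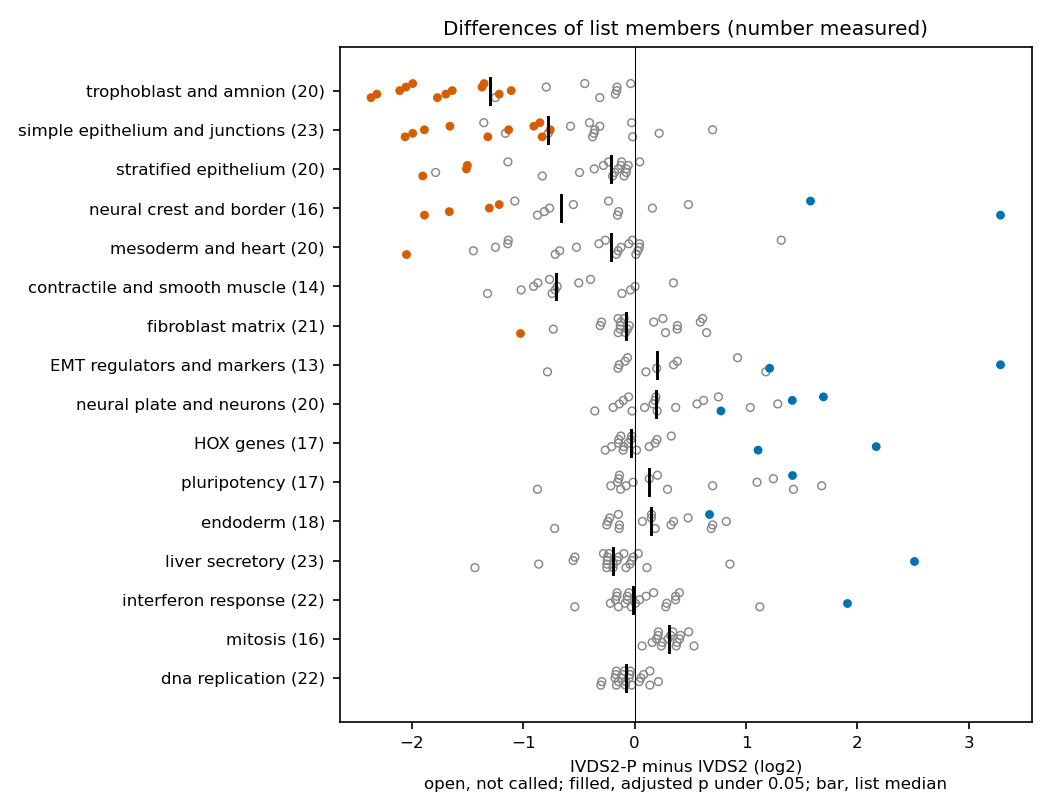
Differences of list members between IVDS2-P and IVDS2 on the log2 scale (x axis) for 16 gene lists (y axis, with the number of genes measured). Filled points passed an adjusted p of 0.05, open points did not, and the bar is the list median, which is -1.30 for trophoblast and amnion, -0.77 for simple epithelium and 0.31 for mitosis.

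TWIST1 led the genes that were higher in the periphery. This basic helix-loop-helix factor of mesenchyme and cranial crest was at 2.34 and 1.41 in the periphery and -1.56 and -1.26 in the whole culture, 9.73-fold higher (difference 3.28 ± 0.35, adjusted p = 0.0108). Both periphery arrays stood above all 8 other arrays, since the centre was at -0.92 and -1.14, ES cells at -0.44 and 0.52 and IVDS3 at 0.84 and 0.44. ZEB1, a zinc finger repressor of epithelial genes, was at 0.49 and 0.75 against -0.74 and -0.45, 2.32-fold higher (difference 1.21 ± 0.15, adjusted p = 0.0115). Its periphery arrays were again the highest of the 10. These 2 were the members called among 13 genes of epithelial-mesenchymal transition, where 0.432% of all genes were called higher. The median difference of that list was 0.20, and 0 were called lower. ZEB2 and PRRX1, related mesenchymal factors, differed by 1.18 and 0.92, VIM (vimentin) by 0.38, FN1 (fibronectin) by 0.10 and SNAI1 by -0.78, none called. TWIST1 and ZEB1 stayed called without IVDS2 replicate 1, IVDS2 replicate 2 or IVDS2-P replicate 2, but leaving out IVDS2-P replicate 1 gave an adjusted p of 0.0534 for TWIST1 and 0.0539 for ZEB1.

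Neural genes were higher where they were called. Of 20 genes of the neural plate and neurons 3 were called higher, where 0.432% of all genes were, and 0 lower, with a median difference of 0.20. ELAVL4, an RNA-binding protein of neurons, was at -0.21 and 0.21 in the periphery and -1.23 and -2.16 in the whole culture (difference 1.69 ± 0.30, adjusted p = 0.0337). Its centre arrays, at 0.29 and 0.78, lay above both periphery arrays. RFX4, a winged-helix factor of neural progenitors, was at 0.72 and 0.83 against 0.04 and -0.04 (difference 0.77 ± 0.10, adjusted p = 0.0136). For RFX4 the centre arrays were below the periphery, at 0.34 and 0.35. SOX2, shared by neural progenitors and pluripotent cells, was the third. PAX6, STMN2 and DCX, an eye field and forebrain factor and 2 microtubule proteins of young neurons, differed by 0.75, 1.28 and 1.04 and were not called. All 3 called genes stayed called without IVDS2 replicate 1, and 0 of them without each of the other 3 arrays.

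Outside that list, the largest higher genes with a name included 6 that are described here. PRPH, the peripherin filament of peripheral neurons, was at 1.18 and 1.25 in the periphery and -0.44 and -0.43 in the whole culture, 3.14-fold higher (difference 1.65 ± 0.18, adjusted p = 0.0108). The periphery arrays were close together and above all other arrays, and of the 4 arrays only IVDS2-P replicate 1, when left out, ended the call. SCN3A, a voltage-gated sodium channel, was at 0.15 and 0.65 against -1.57 and -1.21 (difference 1.79 ± 0.29, adjusted p = 0.0266). CDH18, a cadherin of the nervous system, was at 0.04 and 0.35 against -1.11 and -2.16 (difference 1.83 ± 0.35, adjusted p = 0.043). The centre arrays of CDH18, at 0.56 and 1.22, lay above both periphery arrays. Those of SCN3A, at -0.15 and 0.72, spanned the periphery arrays, and IVDS3 was higher still (2.72 and 2.29). Non-overlap of the arrays of the compared groups was part of the rule by which both genes were named. NRCAM, a neuronal adhesion molecule, LMO3, a LIM-only cofactor, and TSHZ1, a zinc finger factor, were higher, with differences of 1.43, 1.57 and 1.56. Of the 12 largest higher genes with a name, 8 stayed called when IVDS2 replicate 1 was left out, 3 for IVDS2 replicate 2, 3 for IVDS2-P replicate 2 and 0 for IVDS2-P replicate 1.

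HOXA2 and HOXA3 were the members called among 17 HOX genes, both higher (0.432% of all genes were). The median of the list was -0.03. HOXA2, which patterns the hindbrain and its crest, was at 1.35 and 1.05 in the periphery and -0.69 and -1.25 in the whole culture, 4.49-fold higher (difference 2.17 ± 0.30, adjusted p = 0.0166). Its periphery arrays were the highest of the 10. HOXA3 was higher, with a difference of 1.11 (adjusted p = 0.0141), but its 2 probe sets disagreed, with differences of 2.33 and -0.12. The centre arrays of HOXA3, at 0.22 and 0.26, lay above both periphery arrays (-0.19 and 0.20). Its centre minus whole difference was 1.34 (limma adjusted p = 0.00375). The other 15 genes, HOXB3 (0.13) and HOXA5 (-0.26) among them, lay between -0.26 and 0.33. Both calls held without IVDS2 replicate 1 and were lost without any other array (adjusted p 0.0502 to 0.125).

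Of 17 measured genes of pluripotency 1 was called, SOX2, which was higher (0.432% of all genes were), and the median difference was 0.13. SOX2 was at 1.27 and 1.11 in the periphery and 0.01 and -0.46 in the whole culture, 2.67-fold higher (difference 1.42 ± 0.21, adjusted p = 0.0189), and its 3 probe sets differed by 1.36 to 1.47. The periphery lay between the whole culture and ES cells (1.72 and 1.94), and the centre, at -0.01 and -0.56, was close to the whole culture. POU5F1, the Oct4 factor, showed the same order of group means with a wider spread, at 1.85 and 1.10 in the periphery, 0.50 and -0.91 in the whole culture and 2.98 and 3.30 in ES cells. Its periphery arrays lay above those of the whole culture, but the difference of 1.68 ± 0.79 was not called (adjusted p = 0.398). The methyltransferase gene DNMT3B was at 1.29 and 0.90 against 0.52 and -0.52 (difference 1.10 ± 0.37, adjusted p = 0.223). NANOG differed by -0.21 and SALL4 by 0.30, without a call. NANOG was lower in ES cells (-0.70 and -1.37) than on any other array, so its probe set did not follow the ES label. RGS20, a regulator of G protein signalling, was at 1.83 and 1.33 in the periphery and 0.0044 and -0.0044 in the whole culture (difference 1.58 ± 0.28, adjusted p = 0.0337), below the ES arrays at 2.99 and 2.09. The RGS20 call was lost when any 1 of the 4 arrays was left out (adjusted p 0.0610 to 0.237). The SOX2 call held without IVDS2 replicate 1 and had an adjusted p between 0.0642 and 0.155 without each of the others.

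**Figure D4:**
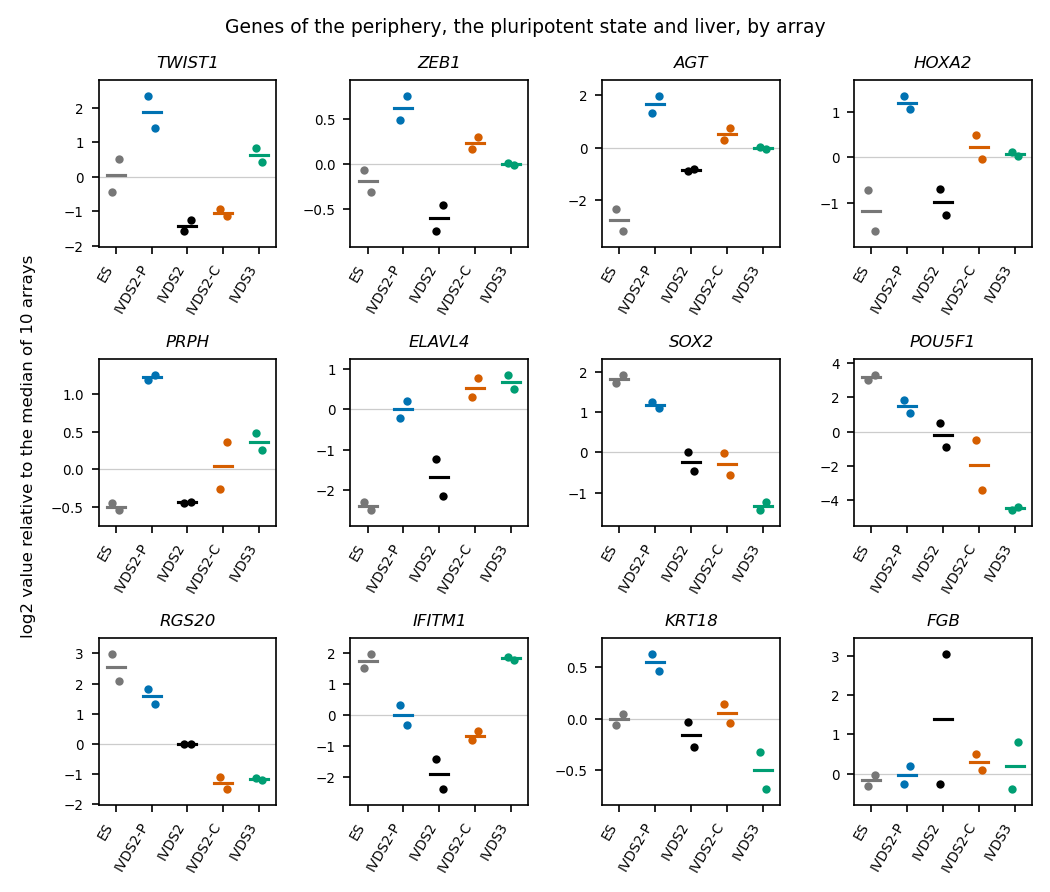
Values of 12 genes by array, drawn as log2 values relative to the median of the 10 arrays (y axis, a scale of its own in each panel) against group (x axis), with points for arrays and bars for group means. TWIST1, AGT, HOXA2 and PRPH are highest in IVDS2-P, SOX2, POU5F1 and RGS20 descend from ES through IVDS2-P to IVDS2, and FGB has 1 IVDS2 array at 3.05 apart from the rest.

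Secretory liver genes gave 1 call between periphery and whole culture among 23 measured, higher (0.432% of all genes were). The median difference was -0.19. The called gene was AGT, angiotensinogen, which liver secretes and other tissues also make. AGT was at 1.33 and 1.97 in the periphery and -0.89 and -0.82 in the whole culture, 5.67-fold higher (difference 2.50 ± 0.29, adjusted p = 0.0115), and the periphery arrays were the highest of the 10. FGB, the beta chain of fibrinogen, was at -0.25 and 0.19 in the periphery and -0.25 and 3.05 in the whole culture, so that 1 IVDS2 array stood apart and the other lay within the range of the periphery. Its difference was -1.43 ± 0.85 (adjusted p = 0.512), and without IVDS2 replicate 1 it was called, with an adjusted p of 0.0366. APOB, an apolipoprotein, differed by -0.28 without a call. APOA1, another, had the same IVDS2 array high (-0.30 and 1.49 against 0.07 and 0.02 in the periphery) and a difference of -0.55 ± 0.55. AFP, the fetal albumin relative, and SERPINA1, the plasma antitrypsin, differed by -0.10 and -0.16 and were not called. Of 15 genes of hepatocyte metabolism limma called 0, and 2 higher and 1 lower had an unadjusted p under 0.05.

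Among 18 endoderm genes PROX1 was the 1 called, higher (0.432% of all genes were). This homeodomain factor of liver bud and lymphatic endothelium was at 0.51 and 0.82 in the periphery and 0.01 and -0.01 in the whole culture (difference 0.66 ± 0.12, adjusted p = 0.0356), and it lost its call without any 1 of the 4 arrays (adjusted p 0.0721 to 0.202) and with only the 4 arrays fitted (adjusted p = 0.107). GATA4, FOXA2, SOX17 and GATA6, factors of definitive and primitive endoderm, differed by 0.15, -0.24, 0.07 and -0.72, none called. Of 12 genes of bile duct cells 3 were called lower, where 0.948% of all genes were. They were the epithelial genes KRT19, KRT7 and EPCAM already described, and their calls did not all hold when 1 array was left out. SOX9, a factor of bile ducts, differed by -0.23 and SPP1, osteopontin, by 1.51, neither called.

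Several genes set the whole culture apart from both colony areas. Over the 57 genes called higher, the median of the group means was lowest in the whole culture (-0.44). It was -0.24 in ES cells, 0 in IVDS3, 0.14 in the centre and 0.62 in the periphery. Over the 125 genes called lower it was 0.14 in the whole culture, -0.87 in the periphery and 0.34 in the centre. The calls themselves fixed the order of periphery and whole culture in these genes. AGT, ELAVL4, SCN3A, CDH18, ZFP36 and ZEB1 were higher in the periphery and were also called higher in IVDS2-C than in IVDS2, by 1.39, 2.23, 1.68, 2.52, 1.78 and 0.82. The same held for HOXA3, TSHZ1 and LMO3, by 1.34, 1.30 and 0.99. Both comparisons use the same IVDS2 arrays, so these differences are not independent. ZFP36, an mRNA decay protein of the immediate early response, was at 0.009 and -0.009 in the periphery, 0.37 and 0.80 in the centre and -1.03 and -1.36 in the whole culture (periphery difference 1.20 ± 0.22, adjusted p = 0.0356). For ZFP36 the whole-culture arrays overlapped the ES arrays (-1.39 and -1.07). GRHL3 was the reverse, higher in the whole culture than in the periphery or the centre (-0.05 and 0.05), with a centre minus whole difference of -1.42 (adjusted p = 0.00548). CCKBR, a receptor for gastrin and cholecystokinin, was at -0.32 and 0.60 in the periphery, 1.58 and 0.32 in the centre and 2.45 and 2.70 in the whole culture (periphery difference -2.43 ± 0.42, adjusted p = 0.0317). Its centre minus whole difference of -1.62 was not called (adjusted p = 0.0571). KRT8 was likewise highest in the whole culture, with a centre minus whole difference of -0.69 that was not called (adjusted p = 0.119). The largest differences in each direction belonged to genes with a locus number for a name. LOC716834 was at 2.23 and 2.60 in the periphery, -0.84 and 0.84 in the centre and -2.40 and -1.05 in the whole culture (difference 4.14 ± 0.66, adjusted p = 0.0249), and its call was lost when any 1 of the 4 arrays was left out (adjusted p 0.0550 to 0.145). LOC715831 was at -1.85 and -0.48, 0.90 and 0.24 and 2.45 and 2.45 in the same order (difference -3.62 ± 0.40, adjusted p = 0.0108), and it lost its call without IVDS2-P replicate 1 (adjusted p = 0.0534).

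Signalling genes gave few calls, where 0.432% of all genes were called higher and 0.948% lower. Of 32 Wnt genes WNT5A, a noncanonical ligand, was called higher, and WNT6 was called lower. WNT5A was at 0.27 and 0.10 in the periphery and -0.64 and -0.59 in the whole culture (difference 0.80 ± 0.13, adjusted p = 0.0266). It was highest in ES cells (0.97 and 0.72), with a periphery minus ES difference of -0.66 (limma adjusted p = 0.0151). The centre arrays of WNT5A were at -0.06 and -0.13. RSPO3, a secreted enhancer of Wnt signalling, differed by 1.62 (adjusted p = 0.0513), just outside the threshold, and AXIN2, a target of canonical Wnt signalling, by -0.43. WNT6 stayed called without IVDS2-P replicate 2 and was lost without each of the other 3 (adjusted p 0.0892 to 0.147). WNT5A lost its call without any 1 of the 4 arrays (adjusted p 0.0658 to 0.208). limma called 0 of 23 genes of BMP and TGF-beta signalling (3 lower at an unadjusted p under 0.05) and 0 of 21 of FGF signalling (2 higher). It called 0 of 20 of Notch and hedgehog (4 lower) and 0 of 14 of the retinoid pathway (1 higher and 3 lower). At that unadjusted p, 915 of all 13191 genes were higher and 866 lower. The BMP targets ID1 and ID3 differed by 0.07 and -0.08, and HEY1 and HEY2, Notch targets, by -1.08 and -0.86.

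Genes of the interferon response gave 1 call among 22 members, higher in the periphery (0.432% of all genes were), and the median difference was -0.01. The list median was -0.18 and -0.30 on the periphery arrays, -0.14 and -0.24 on the IVDS2 arrays and 0.26 and 1.74 on the centre arrays. IFIT1, an RNA-binding antiviral protein, was at 0.22 and -0.29 against -0.22 and -0.43 and was not called. IFITM1, a membrane protein that blocks virus entry and is also made by ES cells, was the called member, at 0.33 and -0.33 in the periphery and -1.41 and -2.40 in the whole culture (difference 1.91 ± 0.33, adjusted p = 0.0313), with ES cells at 1.52 and 1.99. The IFITM1 call held without IVDS2 replicate 1 and was lost without each of the others (adjusted p 0.0503 to 0.215) and with only the 4 arrays fitted (adjusted p = 0.0898). Of 11 genes of antigen presentation 0 were called (1 higher at an unadjusted p under 0.05), and of 19 chemokines and cytokines 0 (1 higher and 3 lower).

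Genes of cell division gave no call. All 16 measured genes of mitosis had a positive difference, from 0.07 to 0.53 with a median of 0.31, but limma called 0 and 1 had an unadjusted p under 0.05. The list median was 0.45 on IVDS2-P replicate 1 and -0.02 on replicate 2, against 0.03 and -0.19 in the whole culture, so 1 periphery array lay within the range of IVDS2. MKI67, the Ki-67 antigen, differed by 0.34 and CDK1, the mitotic kinase, by 0.21. Of 22 genes of DNA replication limma called 0 (1 lower at an unadjusted p under 0.05), with a median of -0.08, and of 19 genes of growth arrest and p53 response 0 (2 higher and 2 lower), CDKN1A among them at 0.20.

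Handling and metabolism lists gave 2 calls, 1 higher and 1 lower, where 0.432% and 0.948% of all genes were. Of 20 genes of the immediate early and dissociation response ZFP36 was the 1 called, and FOS, DUSP1 and ATF3, which respond to tissue handling, differed by -1.03, -0.30 and -0.27. The list median was -0.63 and -0.12 on the periphery arrays and -0.10 and -0.29 in the whole culture. The ZFP36 call was lost without any 1 of the 4 arrays (adjusted p 0.0668 to 0.239). Of 21 genes of hypoxia and glycolysis SLC2A3, a glucose transporter, was called lower, with a difference of -0.99 (adjusted p = 0.0316), although its 4 probe sets ranged from -1.36 to -0.01, and its call too was lost without any 1 of the 4 arrays (adjusted p 0.0578 to 0.225). limma called 0 of 15 genes of cholesterol synthesis (2 higher at an unadjusted p under 0.05), 0 of 17 of the unfolded protein response (2 lower), 0 of 23 of the cytosolic ribosome (1 lower), 0 of 22 of mitochondrial respiration (1 higher) and 0 of 18 of basement membrane and integrins (4 lower). Markers of cells that the culture was not meant to hold gave 0 calls of 10 for endothelium (0 at an unadjusted p under 0.05) and 0 of 9 for blood and macrophages (1 lower).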

How the data were processed

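Total RNA of 10 samples was measured on Affymetrix rhesus macaque arrays. The authors deposited log2 values from RMA, per the submitters' processing notes, whose version is not given in the sources used here, and each probe set was centred on its median. The log base was inferred from the largest range of a probe set (9.51). Of 44294 probe sets 84 controls were left out, 22802 carry 1 gene in the platform annotation, 316 several and 21092 none. The mean over probe sets gave 13191 genes, 7438 of them from 1 probe set.

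A linear model with 1 term per group over all 10 arrays was fitted with limma 3.58.1 under R 4.3.3 (lmFit and eBayes, with 5 residual and 3.94 prior degrees of freedom), and was tested on simulated data. The members and the 35 gene lists (621 genes measured) were chosen with earlier results of these data known, and some genes stand in several lists. Lists are described by counts and medians, with no test. Genes named are the 12 largest called differences in each direction with non-overlapping arrays and no locus-number symbol, up to 4 called members of each list in each direction, and 37 landmark genes (36 measured). Further list members are named as examples, and these, the locus-number genes and the genes under other observations were chosen after their values were seen. Alternatives were centring each array, fitting only the 4 arrays, a replicate block, leaving out ES or single arrays, each gene's most variable probe set, and a 2-fold minimum.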

Additional observations from a re-analysis of the deposited data

How the results depend on the processing

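A 2-fold minimum left 121 of the called genes, 36 of them higher. With only the 4 compared arrays fitted, limma called 261 probe sets (161 lower), 7 trophoblast and amnion genes and 1 neural crest gene lower. Without the ES arrays it called 99 genes higher and 655 probe sets (292 higher). Same-numbered arrays of IVDS2 and IVDS2-P deviated together with a correlation of 0.25, and over the 10 pairs of groups this lay between -0.12 and 0.25, above 0.1 for 5 pairs. Neither the labels nor 2 arrays a group establish that equal numbers mark a shared culture, so the samples are taken to share only a number. With the replicate block limma called 274 genes (115 higher) and 724 probe sets (332 higher). Centring the arrays called 166 genes and the most variable probe set 188. Leaving out 1 array gave 0 to 96 genes (0 to 49 higher, 0 to 67 lower) and 12 to 176 probe sets (3 to 94 higher, 7 to 114 lower). Over the same fits the lower calls ranged from 0 to 5 for trophoblast and amnion, 0 to 2 for stratified epithelium, 0 to 4 for simple epithelium, 0 to 1 for bile duct and 0 to 1 for neural crest genes, and the higher calls from 0 to 3 for neural genes. With the most variable probe set 181 of the 182 called genes had the same sign, and with centred arrays 182. In the other fits the sign could not turn, since the arrays of these genes do not overlap between the groups. The cause of these changes was not tested, and 2 arrays a group limit every count.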

Other observations

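Called genes outside the lists, chosen after their values were seen, included regulators and surface proteins of several kinds. NR3C1, the glucocorticoid receptor, was at -1.21 and -1.03 in the periphery and 0.15 and -0.08 in the whole culture (difference -1.16 ± 0.13, limma adjusted p = 0.0108), and CEBPA, a factor of liver, fat and myeloid cells, was at -1.04 and -1.15 against 0.24 and -0.07 (difference -1.18 ± 0.17, adjusted p = 0.0187). Their probe sets disagreed in size, with differences of -2.12, -1.21 and -0.14 for NR3C1 and of -2.40, -0.74 and -0.40 for CEBPA. MET, the receptor of hepatocyte growth factor, was at -1.85 and -1.31 against 0.07 and -0.07 (difference -1.58 ± 0.24, adjusted p = 0.0211), and the centre was higher still at 1.37 and 1.92. CDH3, placental cadherin, was at -1.84 and -1.23 against 0.21 and 0.39 (difference -1.83 ± 0.22, adjusted p = 0.0115). NPNT, a matrix ligand of integrins, UTRN, utrophin, and ERP27, a protein of the endoplasmic reticulum, were lower too, with differences of -1.18, -1.01 and -1.89. Of these 7 genes limma still called 5 when IVDS2 replicate 1 was left out, 3 for IVDS2 replicate 2, 6 for IVDS2-P replicate 2 and 0 for IVDS2-P replicate 1.

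Genes higher in the periphery included YAP1, a transcriptional coactivator of the Hippo pathway, at 0.62 and 0.83 against -0.07 and -0.18 (difference 0.85 ± 0.12, adjusted p = 0.0183), and FAT4, a protocadherin linked to that pathway, at 0.42 and 0.62 against -0.42 and -0.54 (difference 1.00 ± 0.15, adjusted p = 0.0211). The 4 probe sets of YAP1 differed by 0.14 to 1.17 and the 2 of FAT4 by 0.41 and 1.58. ZBTB20, TSHZ2 and SOX5, transcription factors, had differences of 1.14, 1.00 and 0.72, and the 3 probe sets of TSHZ2 differed by 0.21 to 1.61. SLC1A2, a glutamate transporter, and FEZ1, a protein of axon outgrowth, had differences of 1.14 and 1.22. Of these 7 genes 3 stayed called without IVDS2 replicate 1 and 0 without each of the other 3 arrays (adjusted p 0.0532 to 0.237).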
